A study of Mus musculus with 52 samples.

Results

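The comparison described here is the response of skeletal muscle to an artificial microRNA against Atxn2 in a mouse model of amyotrophic lateral sclerosis (ALS): 6 muscle libraries labelled PFN1_C71G_SKM_amiR_ATXN2 set against 5 labelled PFN1_C71G_SKM_Vehicle, out of 52 libraries in the series. The libraries of each group were taken by tissue and group in the sample titles. The comparison and the gene lists were chosen with earlier results of these data known, so the list counts below are no independent test. The treated mice (3 females and 3 males; 4 aged 36 weeks, 1 aged 38 and 1 aged 39) carried a transgene for human profilin 1 with the C71G mutation and received an adeno-associated virus (AAV) vector carrying the microRNA. The vehicle mice (2 females and 3 males; 4 aged 36 weeks and 1 aged 39) carried the same transgene. A further 6 muscle libraries came from vehicle-treated wild-type FVB/NJ mice aged 36 weeks (3 females and 3 males). The 52 libraries also cover spinal cord and cortex, which enter below only to test where the muscle response differed. No group received a control vector, so the vector and the microRNA cannot be told apart. The promoter that drives the transgene, the route of injection and the muscle that was sampled are not given in the sources used here.

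Profilin 1 is a small protein that binds actin monomers and feeds them to growing filaments, and mutations in it cause a rare inherited form of ALS. Ataxin-2, the product of Atxn2, is an RNA-binding protein of stress granules, and lowering it has been studied as a way to reduce TDP-43 toxicity. Muscle that loses its motor nerve supply turns on acetylcholine receptor subunits, embryonic myosins and Myog, tends to lose its fast glycolytic programme, and accumulates collagen and macrophages. Fast fibres of the mouse are rich in glycogen phosphorylase, glycolytic enzymes, parvalbumin and the fast calcium pump, while slow fibres use their own isoforms of myosin, troponin and calsequestrin.

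The muscle libraries held 66481847 to 111885232 counts on mouse genes, human PFN1 and vector elements together. Between 21246 and 23359 mouse genes were detected, and RNA integrity numbers were 7.1 to 8. Markers of skeletal muscle fibres summed to 99333 to 111696 CPM in treated muscle and 82528 to 100105 CPM in vehicle muscle. In wild-type muscle they summed to 122486 to 148860.00 CPM, so the defining markers of the labelled tissue were present. CPM are counts scaled to a common library total, here with the further TMM scaling explained below. With library totals alone the sums were 106232 to 110689 CPM in treated, 94251.5 to 104182 CPM in vehicle and 114982 to 128169 CPM in wild-type muscle. The choline acetyltransferase gene Chat, a marker of motor neurons, was at 0 in all 11 transgenic muscle libraries. Every other listed neuronal marker had counts in at least 9 of these 11 libraries, at a median of at most 0.394 CPM (unscaled). Human PFN1, the transgene, averaged 244.3 ± 45.8 CPM (without further scaling; SD, n = 6) in treated muscle and 236.1 ± 50.9 CPM in vehicle muscle (n = 5), and was at most 0.0135 CPM in wild-type muscle. On the first principal component of the 17 muscle libraries (45.0% of the variance) treated muscle lay between -0.68 and 40.4, vehicle muscle between 35.1 and 59.3 and wild-type muscle between -74.6 and -45.2. Treated replicate 2 was the library at -0.68. Between vehicle and wild-type muscle 8552 of 16949 genes (50.5%) were called, and between treated and wild-type muscle 5959 (35.2%).

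The vector left almost no transcript in muscle. Counts on the WPRE, a stabilising element in the vector transcript, were 1 to 5 per treated library (17 over 6 libraries, mean 0.0303 ± 0.0144 CPM) and 0 in every vehicle and wild-type muscle library. In treated spinal cord the same element had 52.1 ± 15.0 CPM and in treated cortex 41.8 ± 15.2 CPM (SD, n = 6 each). The microRNA scaffold had 1 count in 1 treated muscle library and 0 in the other 5.

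Atxn2 itself (chr5:121711337-121816493, GRCm38, plus strand) did not pass a test in muscle. It had 61.7 ± 4.63 CPM in treated muscle and 66.02 ± 3.33 CPM in vehicle muscle, unscaled, with 54.9 ± 3.22 CPM in wild-type muscle. The log2 difference was -0.10 (exact permutation test over the 462 splits of 6 and 5 libraries, two-sided p = 0.113, adjusted over 4 such values 0.351; the smallest p this design allows is 0.00216). After TMM scaling, which corrects for libraries dominated by a few abundant genes, the sign turned and the edgeR fit gave a value of 0.041 ± 0.059 (adjusted p = 0.757). Mouse Pfn1 had 116.9 ± 15.3 CPM in treated muscle and 130.9 ± 14.8 CPM in vehicle muscle (log2 difference -0.17, exact permutation p = 0.175), and human PFN1 differed by 0.056 (exact permutation p = 0.736). The mitochondrial share of counts was 19.5 ± 2.203% in treated muscle and 18.0 ± 2.19% in vehicle muscle (exact permutation p = 0.286). The treatment effect on Atxn2 differed between muscle and spinal cord (log2 difference between tissues 0.62 ± 0.085, adjusted p = 2.23e-05, edgeR interaction), with a log2 difference of -0.56 within spinal cord.

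Muscle nevertheless differed between treated and vehicle mice at 190 of 16949 genes tested (1.12%) by edgeR's quasi-likelihood test with a sex term at an adjusted p under 0.05. Of these, 130 were higher (0.767% of genes tested) and 60 lower (0.354%) in treated muscle. At an unadjusted p under 0.05, 1683 genes were higher (9.93%) and 1551 lower (9.15%). The changes were small: the median log2 difference was 0.47 among the rises and -0.84 among the falls, and 11 rises and 19 falls exceeded 2-fold. All 6 treated libraries lay beyond the vehicle mean in the called direction at 174 of the 190. The treated and vehicle libraries did not overlap at 72 of the 190 (46 higher, 26 lower). Over all genes tested the groups did not overlap at 163 higher (0.962%) and 232 lower genes (1.37%). The genes were called in these same libraries, so both counts among the 190 follow largely from the call and are no independent test. The first of them has no share over all genes beside it. With library totals alone as scaling the split became 75 higher and 521 lower. The median log2 difference of all genes was -0.13 with library totals and 0.0027 on the TMM scale, to which differences below refer. The labels do not say whether the libraries of a group came from separate litters or batches, and p-values measure the spread between these libraries. Adjusted p-values below are from this fit, and differences are treated minus vehicle on the log2 scale with their SE.

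The number of calls changed with single libraries, while the directions did not. It was 0 without vehicle replicate 1 (2638 genes at an unadjusted p under 0.05), 1 without vehicle replicate 2, 12 without vehicle replicate 3, 11 without vehicle replicate 4 and 344 without vehicle replicate 5. Leaving out treated replicates 2, 3, 4, 5 and 6 in turn gave 48, 47, 91, 1 and 32, and leaving out treated replicate 1 gave 271. DESeq2 called 931 genes, among them all 190; 544 were higher (3.21% of genes tested) and 387 lower (2.28%). limma-voom, run here and below with a quality weight for each library, called 257 higher (1.52%) and 205 lower (1.21%). The counts that these tools give for lists below stand against those shares. Without the sex term 3 genes were called, and edgeR called none in females or males alone (1476 and 2990 at an unadjusted p under 0.05). The 3 mice older than 36 weeks were all female, and without them 1 gene was called (2323 at an unadjusted p under 0.05). Wherever they could be tested, all 190 genes had the same sign in each of the 26 alternative settings. The genes were called in the same libraries that these settings refit, so the kept sign is no independent test. Every call named below was lost without vehicle replicate 1, where no gene was called, with its direction kept.

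**Figure D1:**
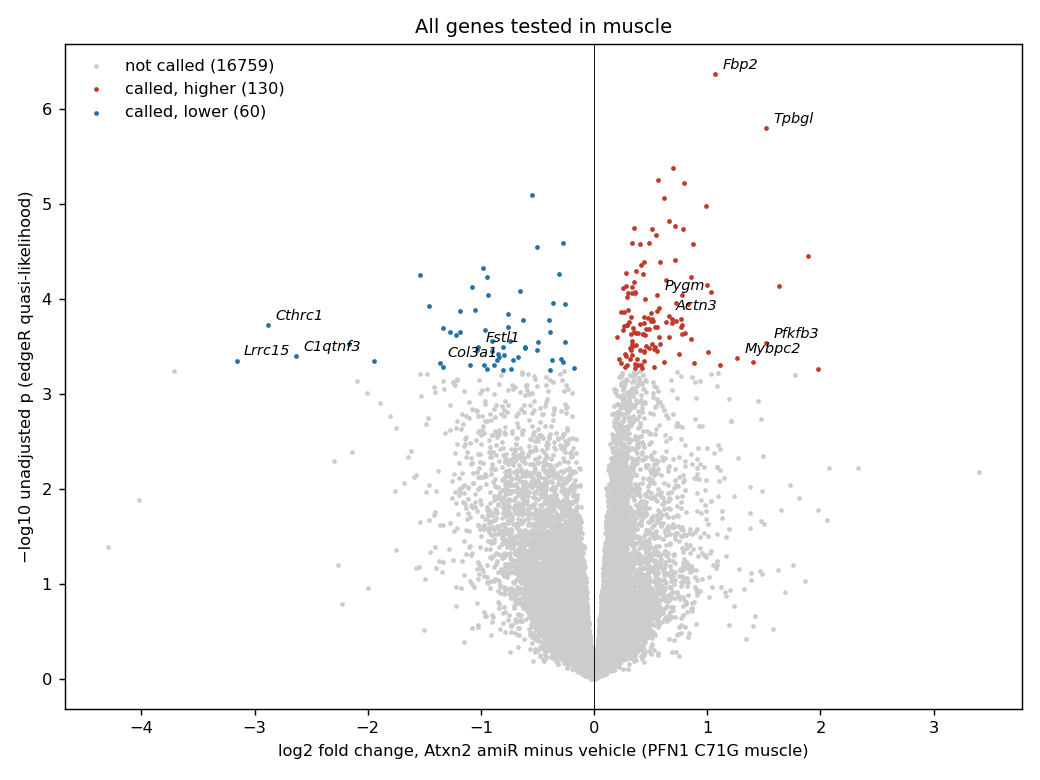
Log2 difference (treated minus vehicle muscle, x axis) against −log10 of the unadjusted edgeR p (y axis) for 16949 genes; red points are the 130 genes called higher, blue points the 60 called lower and grey points the rest. The called rises reach 1.98 (Ighg2c, a gene under 1 CPM) and, among genes of at least 1 CPM, 1.63 (Pdzd7), and the called falls reach -3.16 (Lrrc15).

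The list of glycolysis and glycogen genes held the most called rises of any list. Of 25 tested members 9 were called higher and none lower, against 0.767% of all genes, and the list median was 0.40 against 0.0027 over all genes. Fbp2, the muscle isoform of fructose-1,6-bisphosphatase (chr13:62836877-62858422, minus strand), had the smallest adjusted p of all genes tested. It measured 10.1, 12.6 and 16.2 CPM in treated muscle, against 5.23, 6.59, 6.31, 5.30 and 6.71 CPM in vehicle muscle and 12.2 to 19.5 CPM in wild-type muscle (on the TMM scale, with the lowest, median and highest of the 6 treated libraries, the vehicle replicates 1 to 5 and the wild-type range, as in all such series below). The treated libraries all lay above every vehicle library and overlapped the wild-type range (log2 difference 1.07 ± 0.13 (SE), adjusted p = 0.00720). Pygm, the muscle glycogen phosphorylase that releases glucose 1-phosphate from glycogen, measured 3009, 3920.4 and 4386 CPM in treated muscle, against 2054, 2132, 2958, 2792 and 3432 CPM in vehicle muscle and 5170.2 to 7191 CPM in wild-type muscle. Vehicle replicate 5 lay above treated replicates 1 and 3, and the groups otherwise did not overlap (log2 difference 0.56 ± 0.11, adjusted p = 0.0308). Phka1, the muscle regulatory subunit of phosphorylase kinase, averaged 330.1 ± 50.3 CPM in treated muscle and 202 ± 38.9 CPM in vehicle muscle, with 691 ± 129 CPM in wild-type muscle (SD, n = 6, 5 and 6) and did not overlap between treated and vehicle libraries (log2 difference 0.72 ± 0.14, adjusted p = 0.0343).

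The next enzyme after the phosphorylase, Pgm1, which turns glucose 1-phosphate into glucose 6-phosphate, averaged 605 ± 63.5 CPM in treated muscle and 417 ± 88.7 CPM in vehicle muscle (log2 difference 0.58 ± 0.12, adjusted p = 0.0363). Of the enzymes after it, the isomerase gene Gpi1 rose (log2 difference 0.40 ± 0.085, adjusted p = 0.0365), as did the aldolase gene Aldoa (log2 difference 0.50 ± 0.10, adjusted p = 0.0365) and Gapdh (log2 difference 0.44 ± 0.10, adjusted p = 0.0420); Gapdh and Aldoa have near-identical copies in the genome, between which the authors' counting divides reads, so their values are less certain. Ppp1r3a, a subunit that brings protein phosphatase 1 to glycogen, rose (log2 difference 0.43 ± 0.092, adjusted p = 0.0366). Pfkfb3, which sets the level of the glycolytic activator fructose 2,6-bisphosphate, had the largest difference of the list. It measured 54.9, 167 and 271 CPM in treated muscle, against 32.7, 23.4, 44.03, 76.9 and 140.4 CPM in vehicle muscle and 66.9 to 270.5 CPM in wild-type muscle. Treated replicates 1 and 2 were the lowest of their group, vehicle replicate 5 was the highest of its own, and the groups overlapped (log2 difference 1.52 ± 0.33, adjusted p = 0.0407). Of the 16 members that were not called, 9 had an unadjusted p under 0.05, all with positive differences, for example the lactate dehydrogenase gene Ldha (log2 difference 0.47 ± 0.13, adjusted p = 0.0798) and the muscle enolase gene Eno3 (log2 difference 0.45 ± 0.12, adjusted p = 0.0609). Hk2, the muscle hexokinase, and Gys1, the muscle glycogen synthase, had differences of 0.043 and 0.042 (adjusted p = 0.818 and 0.808). Slc37a4, the carrier of glucose 6-phosphate into the endoplasmic reticulum, lies outside the list and rose (log2 difference 0.85 ± 0.18, adjusted p = 0.0386), and so did Gpd1, the cytosolic glycerol 3-phosphate dehydrogenase (log2 difference 1.01 ± 0.23, adjusted p = 0.0426).

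Fast-fibre genes also held called rises. Of 14 tested members 5 were called higher and none lower, with a list median of 0.37. Mybpc2, the fast isoform of myosin-binding protein C, measured 1191, 2398 and 2701 CPM in treated muscle, against 421, 434, 1255, 1093 and 1815 CPM in vehicle muscle and 3445 to 5681 CPM in wild-type muscle. Vehicle replicates 1 and 2, the females of that group, stood far below the other libraries, and vehicle replicates 3 and 5 lay inside the treated range (log2 difference 1.27 ± 0.29, adjusted p = 0.0456). Pvalb, the calcium buffer parvalbumin of the fastest fibres, measured 1992, 2903 and 3850.3 CPM in treated muscle, against 1383, 1036, 1873, 2028 and 2499 CPM in vehicle muscle and 4057 to 6865 CPM in wild-type muscle. Vehicle replicates 4 and 5 lay inside the treated range (log2 difference 0.77 ± 0.16, adjusted p = 0.0365). Actn3, the Z-disc actinin restricted to fast fibres, measured 2464, 2872 and 4377 CPM in treated muscle, against 1989.6, 1521, 1967, 2117 and 2674 CPM in vehicle muscle and 3898 to 5734 CPM in wild-type muscle, with vehicle replicate 5 inside the treated range (log2 difference 0.66 ± 0.14, adjusted p = 0.0365). The fast calcium pump gene Atp2a1 averaged 19996 ± 2609.8 CPM in treated muscle and 14277 ± 2381 CPM in vehicle muscle, with 30275 ± 2499 CPM in wild-type muscle (log2 difference 0.51 ± 0.11, adjusted p = 0.0407). Casq1, the fast calsequestrin that stores calcium in the sarcoplasmic reticulum, averaged 1068 ± 183 CPM in treated muscle and 715 ± 171 CPM in vehicle muscle, with 1707 ± 265 CPM in wild-type muscle (log2 difference 0.62 ± 0.14, adjusted p = 0.0461).

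The 250 bases before the annotated start (RefSeq, GRCm38.p6) are shown for Fbp2, which had the smallest adjusted p, and for the called fast-fibre genes with an entry in the promoter table, because these genes moved together. Capitals mark E-boxes, CANNTG, which myogenic basic helix-loop-helix factors bind, and in Pvalb a match to the MEF2 motif, of which the other 4 windows hold none. Both strands were searched, and no E-box overlapped the MEF2 match. The windows are chr13:62858401-62858650 for Fbp2, chr7:44524670-44524919 for Mybpc2, chr7:126463074-126463323 for Atp2a1, chr1:172219896-172220145 for Casq1 and chr15:78206401-78206650 for the first of 2 Pvalb starts, all on the minus strand and printed 5′ to 3′.
Fbp2: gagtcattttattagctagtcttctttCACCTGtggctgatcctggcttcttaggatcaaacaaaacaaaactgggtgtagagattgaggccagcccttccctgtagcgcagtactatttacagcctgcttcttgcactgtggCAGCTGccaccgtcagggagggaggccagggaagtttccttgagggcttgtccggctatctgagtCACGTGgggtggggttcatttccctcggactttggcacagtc
Mybpc2: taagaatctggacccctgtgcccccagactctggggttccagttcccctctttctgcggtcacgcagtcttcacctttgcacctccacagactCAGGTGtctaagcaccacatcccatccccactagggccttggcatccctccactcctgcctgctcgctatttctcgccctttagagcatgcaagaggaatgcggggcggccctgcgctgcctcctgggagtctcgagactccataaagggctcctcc
Atp2a1: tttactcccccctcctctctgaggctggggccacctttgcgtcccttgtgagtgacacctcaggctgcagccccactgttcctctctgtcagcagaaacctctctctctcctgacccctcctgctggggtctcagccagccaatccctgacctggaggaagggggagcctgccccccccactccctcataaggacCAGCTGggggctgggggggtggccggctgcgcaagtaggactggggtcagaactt
Casq1: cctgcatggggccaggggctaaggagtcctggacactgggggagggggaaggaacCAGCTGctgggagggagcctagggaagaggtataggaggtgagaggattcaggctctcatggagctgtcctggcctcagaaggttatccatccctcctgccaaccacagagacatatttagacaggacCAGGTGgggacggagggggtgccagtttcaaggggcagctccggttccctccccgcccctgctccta
Pvalb: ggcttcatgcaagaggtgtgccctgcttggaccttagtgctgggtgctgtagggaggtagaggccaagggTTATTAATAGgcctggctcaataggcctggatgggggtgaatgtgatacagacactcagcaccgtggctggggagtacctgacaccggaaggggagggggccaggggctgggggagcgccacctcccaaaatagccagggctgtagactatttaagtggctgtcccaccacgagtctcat
Fbp2 held 3 E-boxes, Casq1 2, Mybpc2 1 and Atp2a1 1, while the first Pvalb window held none and the second 1. The same window of Col3a1, a called fall, held 4. The first Pvalb window had a MEF2 match at positions -180 to -171 from the start. Of 32851 promoter windows of this length, 66.2% held an E-box and 2.92% a MEF2 match. The half-site TGCTGAC of the MAF factors, found in 3.81% of windows, occurred in the Atp2a1 window and in none of the other 4.

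**Figure D2:**
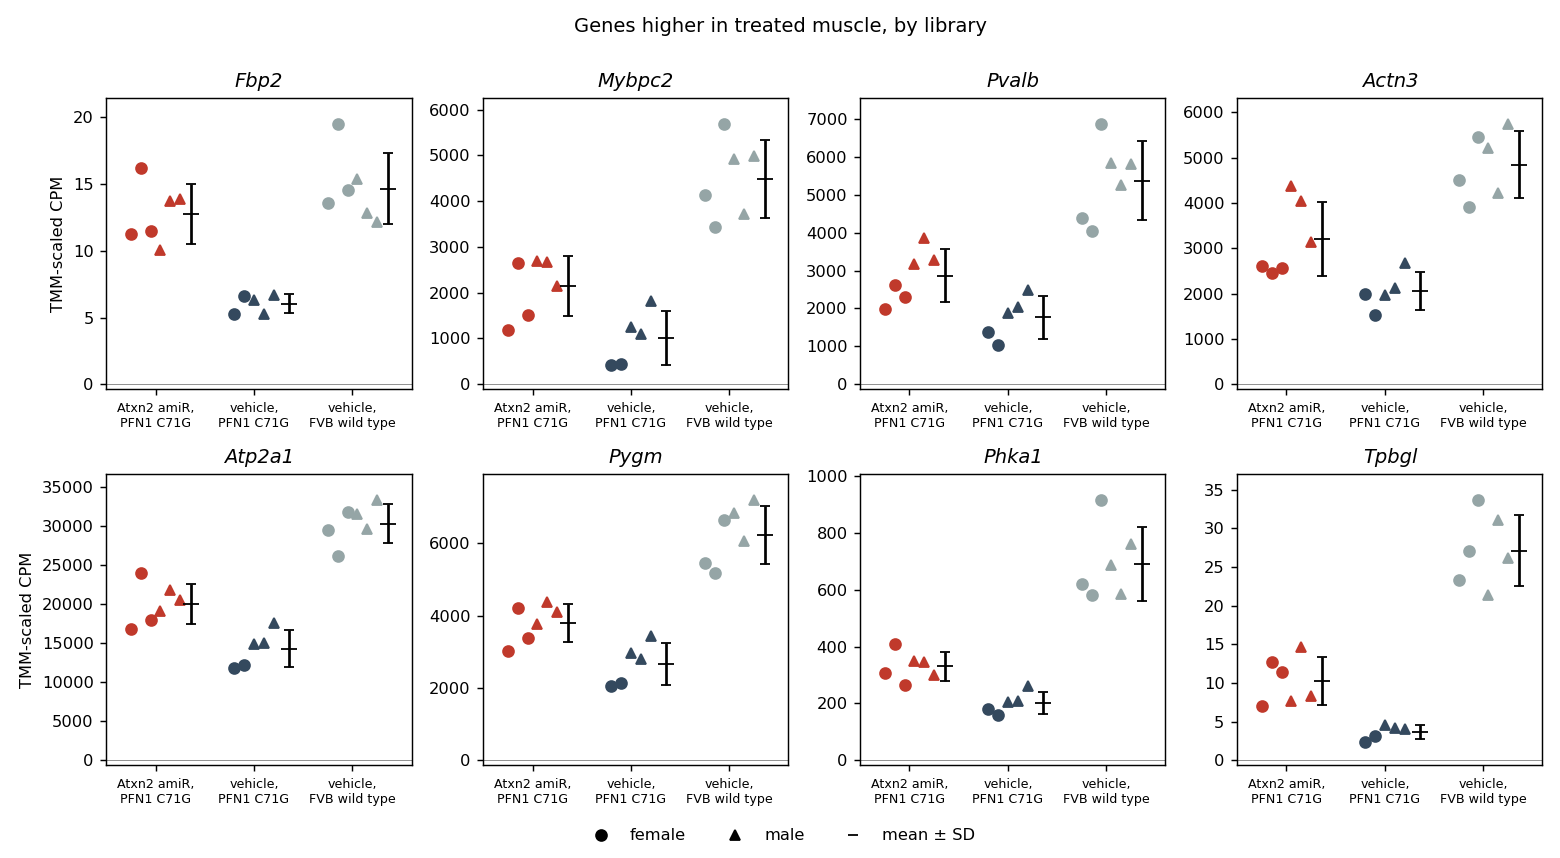
TMM-scaled CPM (y axis, linear from 0) of 8 called genes in each library of treated, vehicle and wild-type muscle (x axis, left to right); circles are females, triangles males, and the black bar is the mean ± SD (n = 6, 5 and 6). Treated libraries stand above all vehicle libraries for Fbp2, Phka1 and Tpbgl and overlap them for the other 5 genes.

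The fast myosin genes were not called. Myh4, the heavy chain of the fastest (IIb) fibres, averaged 22200.4 ± 6209 CPM in treated muscle and 11145 ± 6805 CPM in vehicle muscle, with 41261 ± 8257 CPM in wild-type muscle and missed the threshold (log2 difference 1.19 ± 0.30, adjusted p = 0.0588). Myh1, the IIx heavy chain, had a log2 difference of 0.092 (adjusted p = 0.764). Myh2, the IIa heavy chain, had the single negative value of the list (log2 difference -0.93 ± 0.38, adjusted p = 0.194). The fast troponin genes Tnnt3, Tnni2 and Tnnc2 had differences of 0.27, 0.28 and 0.27 and were not called.

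Some genes of calcium handling were called higher. Of 16 tested members of this list 4 were called higher and none lower, with a median of 0.18. With library totals alone the median was 0.051 and 2 were called higher. Jph1 and Jph2, junctophilins that tether the sarcoplasmic reticulum to the transverse tubule, rose by 0.41 and 0.44 on the log2 scale (adjusted p = 0.0298 and 0.0365). Trdn, triadin of the release complex, measured 919, 1014 and 1085 CPM in treated muscle, against 743, 740.5, 819, 892 and 882 CPM in vehicle muscle and 1043 to 1437 CPM in wild-type muscle, without overlap between treated and vehicle libraries (log2 difference 0.32 ± 0.070, adjusted p = 0.0413). Mylk2, the skeletal myosin light-chain kinase, averaged 395 ± 45.7 CPM in treated muscle and 246 ± 64.4 CPM in vehicle muscle, with 1120.2 ± 151 CPM in wild-type muscle (log2 difference 0.72 ± 0.13, adjusted p = 0.0289); vehicle replicate 5, at 357 CPM, stood far above the other 4 vehicle libraries. The ryanodine receptor gene Ryr1 and the voltage sensor gene Cacna1s had differences of 0.24 and 0.20 and were not called (adjusted p = 0.120 and 0.117).

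In the sarcomere and Z-disc list 2 of 18 tested genes were called higher and none lower, with a median of 0.083 that became -0.051 with library totals alone. Myoz1, a calcineurin-binding Z-disc protein of fast fibres, averaged 809 ± 137 CPM in treated muscle and 550.4 ± 160.1 CPM in vehicle muscle, with 1359.6 ± 279.6 CPM in wild-type muscle (log2 difference 0.64 ± 0.12, adjusted p = 0.0308). Tmod4, a tropomodulin that caps thin filaments, did not overlap between treated and vehicle libraries (log2 difference 0.38 ± 0.082, adjusted p = 0.0366). The actin gene Acta1 (0.17), nebulin (0.12) and titin (0.074) were not called. Kcnj12, an inward-rectifier potassium channel, was the 1 called gene among 13 muscle ion channels and measured 21.6, 24.2 and 30.8 CPM in treated muscle, against 14.9, 15.8, 19.2, 18.1 and 21.5 CPM in vehicle muscle and 36.6 to 46.7 CPM in wild-type muscle. The lowest treated library stood just above vehicle replicate 5, and the groups did not overlap (log2 difference 0.51 ± 0.086, adjusted p = 0.0237). Ckm, the muscle creatine kinase that buffers ATP, rose (log2 difference 0.48 ± 0.11, adjusted p = 0.0413).

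The next 5 called rises were picked after their values were seen, outside the rule for named genes and from no list, so they carry no count of how many such regulators were tested. Maf, a large MAF transcription factor that drives the IIb programme in mice, averaged 89.5 ± 22.2 CPM in treated muscle and 55.9 ± 15.8 CPM in vehicle muscle, with 176 ± 29.7 CPM in wild-type muscle (log2 difference 0.75 ± 0.17, adjusted p = 0.0436). Its relative Mafa, of the same role, averaged 23.9 ± 7.62 CPM in treated muscle and 15.1 ± 3.10 CPM in vehicle muscle, with 48.00 ± 2.51 CPM in wild-type muscle (log2 difference 0.69 ± 0.14, adjusted p = 0.0365). Sox6, a repressor of slow-fibre genes, averaged 85.3 ± 7.38 CPM in treated muscle and 66.8 ± 7.43 CPM in vehicle muscle, with 108 ± 6.96 CPM in wild-type muscle (log2 difference 0.36 ± 0.071, adjusted p = 0.0308). The calmodulin-dependent kinase gene Camk2a rose (log2 difference 0.70 ± 0.10, adjusted p = 0.0202), as did Smyd2, a lysine methyltransferase of striated muscle (log2 difference 0.71 ± 0.12, adjusted p = 0.0237).

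The largest rises outside these lists were mostly genes of low level. Tpbgl, a homologue of the trophoblast glycoprotein gene (chr7:99624082-99627103, GRCm38), measured 6.99, 9.85 and 14.7 CPM in treated muscle, against 2.32, 3.14, 4.55, 4.20 and 4.00 CPM in vehicle muscle and 21.4 to 33.6 CPM in wild-type muscle. Every treated library lay above every vehicle library, and both groups stayed below all wild-type libraries (log2 difference 1.52 ± 0.21, adjusted p = 0.0134). Pdzd7, a scaffold protein known from hair cells, averaged 1.74 ± 0.753 CPM in treated muscle and 0.657 ± 0.452 CPM in vehicle muscle, with 5.29 ± 1.74 CPM in wild-type muscle (log2 difference 1.63 ± 0.31, adjusted p = 0.0308), with 5 of 6 treated libraries above the vehicle mean. Wnt4, a secreted WNT ligand, measured 7.19, 8.07 and 10.7 CPM in treated muscle, against 4.44, 3.15, 4.86, 4.16 and 4.30 CPM in vehicle muscle and 8.45 to 15.5 CPM in wild-type muscle and did not overlap between treated and vehicle libraries (log2 difference 0.99 ± 0.16, adjusted p = 0.0222). Gpt2, the mitochondrial alanine aminotransferase, averaged 109 ± 25.2 CPM in treated muscle and 62.9 ± 16.98 CPM in vehicle muscle, with 177 ± 40.1 CPM in wild-type muscle (log2 difference 0.86 ± 0.16, adjusted p = 0.0301). Ighm, the constant region of immunoglobulin M made by B cells, measured 50.4, 158 and 249.98 CPM in treated muscle, against 48.2, 36.1, 53.8, 72.7 and 79.7 CPM in vehicle muscle and 125 to 239 CPM in wild-type muscle (log2 difference 1.40 ± 0.32, adjusted p = 0.0461), with treated replicates 1 and 3 inside the vehicle range. Of 13 markers of T, NK and B cells 9 were too low to test, at a median of at most 0.0682 CPM over the 11 transgenic libraries, and Cd4, Cd79a and Jchain were tested and not called. Ighg2c, a further immunoglobulin constant region at 0.245 CPM in treated muscle and 0.0676 CPM in vehicle muscle, was also called (log2 difference 1.98 ± 0.46, adjusted p = 0.0496; named after its value was seen); its reads can be divided among near-identical immunoglobulin genes. The remaining largest rises were Il12a, the p35 chain of interleukin 12 (1.11), Tmem233 (0.87), the synaptotagmin gene Syt3 (0.83), Asb4, a substrate adaptor of ubiquitin ligases (0.80), and the unconventional myosin gene Myo5c (0.80), with adjusted p from 0.0202 to 0.0474.

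Genes of mitochondrial metabolism leaned upward with few calls. Of 26 tested genes of fatty acid oxidation and uptake 1 was called higher, Ucp3, a mitochondrial carrier of muscle. Ucp3 measured 128, 165 and 200.2 CPM in treated muscle, against 89.05, 101, 72.5, 94.2 and 129 CPM in vehicle muscle and 82.5 to 141 CPM in wild-type muscle (log2 difference 0.78 ± 0.15, adjusted p = 0.0308); treated replicate 5 was level with vehicle replicate 5. The list median was 0.14, against 0.0059 with library totals alone and 0.026 without treated replicate 2. Among 40 nuclear genes for oxidative phosphorylation 39 had positive differences with a median of 0.15, and none was called by edgeR. An unadjusted p under 0.05 was reached by 0 higher and 0 lower genes of 40. Neither DESeq2 nor limma-voom called any (0 each). With library totals alone that median was 0.018. All 13 mitochondrially encoded transcripts were positive (median 0.31), and mt-Atp8 was called (log2 difference 0.55 ± 0.12, adjusted p = 0.0365); it overlaps mt-Atp6 and has copies in the nuclear genome, which makes its count less certain. Across lists, Fbxo31, an F-box protein of the atrophy list, rose (log2 difference 0.35 ± 0.075, adjusted p = 0.0366), and so did Lsm12, an RNA-binding protein of the Lsm family (log2 difference 0.20 ± 0.043, adjusted p = 0.0374).

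**Figure D3:**
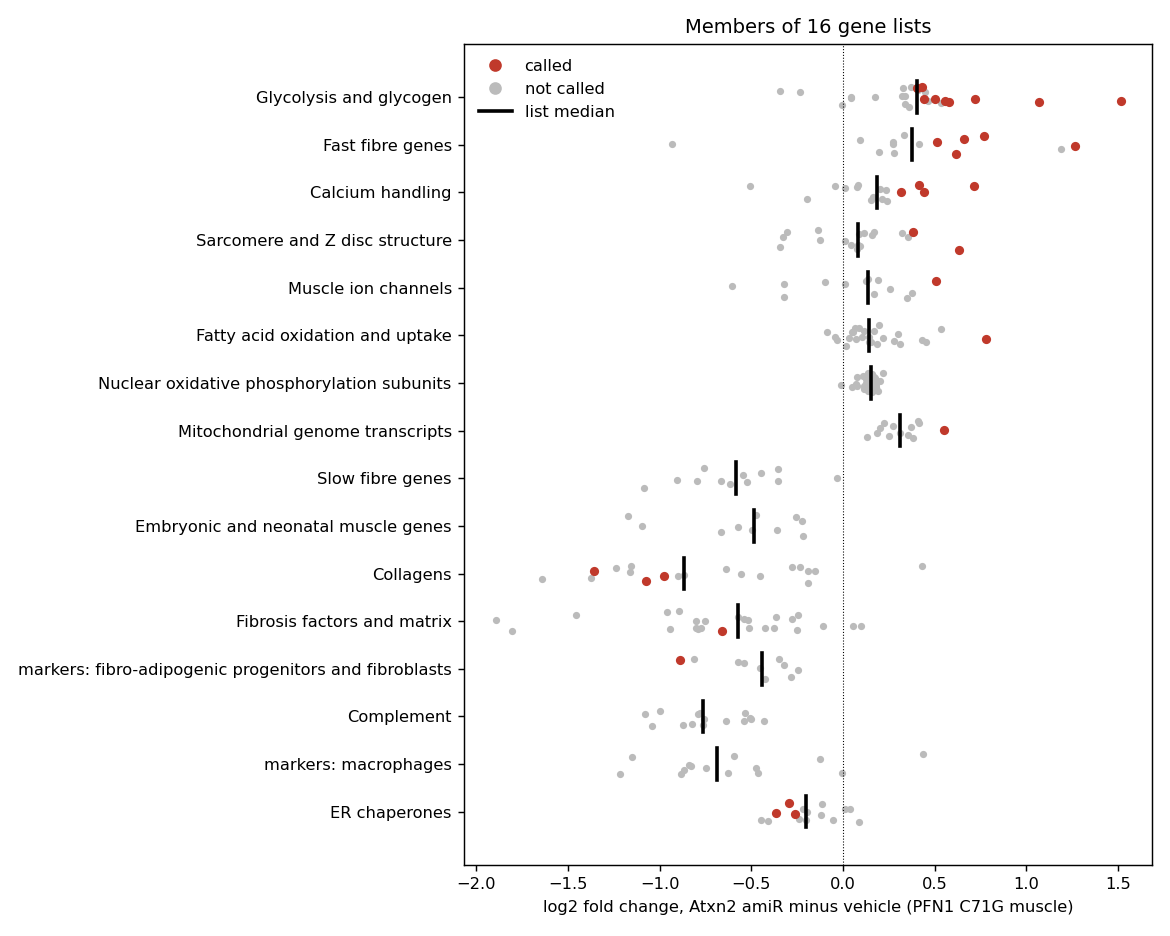
Log2 difference (treated minus vehicle muscle, x axis) of every tested member of 16 gene lists (y axis); red points are called genes, grey points are not, and the black bar is the list median. Glycolytic, fast-fibre and calcium-handling genes lie mainly right of 0 with 9, 5 and 4 called members, and collagens mainly left of 0 with 3.

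Slow-fibre genes leaned the other way, with no call. All 12 tested members had negative differences and a median of -0.58 (-0.32 without vehicle replicate 2); by edgeR none was called. Unadjusted p-values were under 0.05 for 0 higher and 3 lower genes of 12. DESeq2 and limma-voom also called 0. Casq2, the slow calsequestrin, had the smallest p of the list and averaged 51.5 ± 7.08 CPM in treated muscle and 78.1 ± 40.3 CPM in vehicle muscle, with 28.1 ± 8.41 CPM in wild-type muscle (log2 difference -0.54 ± 0.18, adjusted p = 0.122); the female vehicle libraries had 116 and 127 CPM and the male ones 38.4 to 58.4 CPM. The slow heavy chain gene Myh7 averaged 272 ± 219.7 CPM in treated muscle and 354 ± 398 CPM in vehicle muscle, with 18.9 ± 31.1 CPM in wild-type muscle (log2 difference -0.52 ± 0.73, adjusted p = 0.745), a difference smaller than the SD of either group. Vehicle replicate 2 had the highest sum of slow-fibre transcripts, 9011 CPM, and the sums overlapped (3569 to 6877 CPM in treated muscle and 3759.9 to 9011 CPM in vehicle muscle).

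Genes that mark denervation showed no call, although vehicle muscle stood far from wild-type muscle in them. The median of 15 tested denervation genes was -0.23 for treated minus vehicle and 3.26 for vehicle minus wild type; these comparisons share the vehicle libraries. By edgeR none was called between treated and vehicle. Among the 15 genes, 1 was higher and 0 lower at an unadjusted p under 0.05. DESeq2 called 1 higher and 0 lower, and limma-voom 0 higher and 0 lower. Myog, a myogenic factor induced by nerve loss, averaged 85.9 ± 36.3 CPM in treated muscle and 99.9 ± 29.7 CPM in vehicle muscle, with 7.92 ± 2.07 CPM in wild-type muscle (log2 difference -0.23 ± 0.28, adjusted p = 0.699), and Runx1 averaged 66.3 ± 23.8 CPM in treated muscle and 83.5 ± 17.5 CPM in vehicle muscle, with 3.85 ± 0.423 CPM in wild-type muscle (log2 difference -0.32 ± 0.20, adjusted p = 0.416). Of 15 genes of the neuromuscular junction none was called (median -0.15). Of the 15, 3 were higher and 4 lower at an unadjusted p under 0.05. DESeq2 called 1 higher and 0 lower, and limma-voom 1 higher and 0 lower. The receptor subunit genes Chrna1 and Chrng had log2 differences of -0.44 and -0.66 (adjusted p = 0.339 and 0.212). Embryonic and neonatal genes had 10 of 10 negative differences, a median of -0.49 and no call. An unadjusted p under 0.05 was reached by 0 higher and 5 lower genes of 10. DESeq2 called 0 higher and 1 lower, and limma-voom 0 higher and 0 lower. Myh3, the embryonic heavy chain, averaged 27.3 ± 6.52 CPM in treated muscle and 58.6 ± 17.01 CPM in vehicle muscle, with 7.89 ± 4.32 CPM in wild-type muscle and did not overlap between treated and vehicle libraries, but missed the threshold (log2 difference -1.10 ± 0.32, adjusted p = 0.0900).

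Collagens and genes of matrix-producing fibroblasts leaned lower in treated muscle, with few calls. Vehicle replicate 3 stood apart in them: the 19 tested collagen genes summed to 712 to 1378 CPM in treated muscle, against 3270.4 CPM in vehicle replicate 3, 1566 to 1711 CPM in the other 4 vehicle libraries and 482 to 1369.9 CPM in wild-type muscle. Of 19 tested collagen genes 3 were called lower and none higher, against 0.354% of all genes, with a median of -0.87. Col3a1, a fibrillar collagen of connective tissue (chr1:45311538-45349706, plus strand), measured 107, 175 and 239 CPM in treated muscle, against 352, 322, 828, 291 and 452 CPM in vehicle muscle and 57.6 to 219 CPM in wild-type muscle. All treated libraries lay below all vehicle libraries, 5 of the 6 within the wild-type range, and vehicle replicate 3 stood far above the other 4 vehicle libraries (log2 difference -1.36 ± 0.31 (SE), adjusted p = 0.0469); without that library the difference was -1.07. Col5a1, a regulator of fibril diameter, measured 19.3, 28.2 and 32.2 CPM in treated muscle, against 48.95, 46.95, 92.3, 38.3 and 45.9 CPM in vehicle muscle and 15.9 to 35.9 CPM in wild-type muscle (log2 difference -0.98 ± 0.23, adjusted p = 0.0474; -0.71 without vehicle replicate 3). Col8a1, a short-chain collagen, averaged 6.56 ± 2.16 CPM in treated muscle and 13.6 ± 5.33 CPM in vehicle muscle, with 4.05 ± 1.24 CPM in wild-type muscle (log2 difference -1.08 ± 0.21, adjusted p = 0.0308; -1.08 without vehicle replicate 3). Without vehicle replicate 3 the edgeR fit called none of Col3a1, Col5a1 and Col8a1 (adjusted p = 0.118, 0.105 and 0.0798). The main fibrillar collagen genes Col1a1 and Col1a2 had log2 differences of -1.38 and -1.16 and were not called (adjusted p = 0.115 and 0.153).

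The 3 largest falls were genes of low level for secreted or surface proteins. Lrrc15, a surface protein of activated fibroblasts, measured 0.0491, 0.190 and 0.547 CPM in treated muscle, against 1.31, 1.08, 7.28, 0.362 and 1.63 CPM in vehicle muscle and 0.0266 to 0.613 CPM in wild-type muscle. Cthrc1, a secreted protein made by matrix-producing fibroblasts, measured 0.224, 0.480 and 0.690 CPM in treated muscle, against 1.49, 1.76, 11.7, 0.673 and 3.04 CPM in vehicle muscle and 0.106 to 0.445 CPM in wild-type muscle. For both, vehicle replicate 3 stood several times above the next vehicle library, and vehicle replicate 4 lay inside the treated range. The log2 difference was -3.16 for Lrrc15 (adjusted p = 0.0460) and -2.88 for Cthrc1 (adjusted p = 0.0365), and without vehicle replicate 3 they were -2.26 and -1.95. C1qtnf3, a secreted protein of the C1q and TNF family, averaged 1.24 ± 0.537 CPM in treated muscle and 7.73 ± 7.85 CPM in vehicle muscle, with 0.929 ± 0.751 CPM in wild-type muscle (log2 difference -2.63 ± 0.60, adjusted p = 0.0443; -1.74 without vehicle replicate 3), and its relative C1qtnf6 averaged 2.13 ± 0.357 CPM in treated muscle and 5.00 ± 2.76 CPM in vehicle muscle, with 2.02 ± 0.498 CPM in wild-type muscle (log2 difference -1.22 ± 0.26, adjusted p = 0.0366; -0.82). Without vehicle replicate 3 none of these genes passed the threshold (adjusted p = 0.0799 to 0.118), and each kept its direction.

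Fstl1, a secreted glycoprotein of mesenchymal cells, measured 25.6, 41.6 and 52.9 CPM in treated muscle, against 74.2, 69.01, 113, 56.1 and 80.01 CPM in vehicle muscle and 19.02 to 47.4 CPM in wild-type muscle, with no overlap between treated and vehicle libraries (log2 difference -1.02 ± 0.23, adjusted p = 0.0413). Ccdc80, a secreted matrix protein, fell by 0.950 on the log2 scale (adjusted p = 0.0301), also without overlap. Loxl1, which crosslinks elastin, was the 1 called gene of 25 in the list of fibrosis factors and matrix (median -0.57; log2 difference -0.66 ± 0.13, adjusted p = 0.0308). Periostin (Postn) averaged 18.2 ± 8.90 CPM in treated muscle and 66.9 ± 38.95 CPM in vehicle muscle, with 9.57 ± 7.12 CPM in wild-type muscle, and fibronectin (Fn1) 90.4 ± 43.3 CPM in treated muscle and 242 ± 167 CPM in vehicle muscle, with 60.8 ± 35.2 CPM in wild-type muscle. Neither was called (adjusted p = 0.0608 and 0.130). Mfap5, a microfibril protein of fibroblasts, averaged 9.77 ± 3.26 CPM in treated muscle and 17.4 ± 4.83 CPM in vehicle muscle, with 7.34 ± 2.11 CPM in wild-type muscle (log2 difference -0.89 ± 0.21, adjusted p = 0.0474) and was the 1 called marker among 10 of fibro-adipogenic progenitors and fibroblasts. All 10 of those markers had negative differences (median -0.44), and their sum was 298 to 686 CPM in treated muscle and 611 to 766 CPM in vehicle muscle. Without vehicle replicate 3 the edgeR fit called none of Fstl1, Ccdc80, Loxl1 and Mfap5 (adjusted p = 0.102, 0.0798, 0.0821 and 0.118), and each kept its direction. In bulk tissue, fewer cells of a type and less RNA per cell cannot be told apart, and the part of fibroblast content in these falls was not tested.

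**Figure D4:**
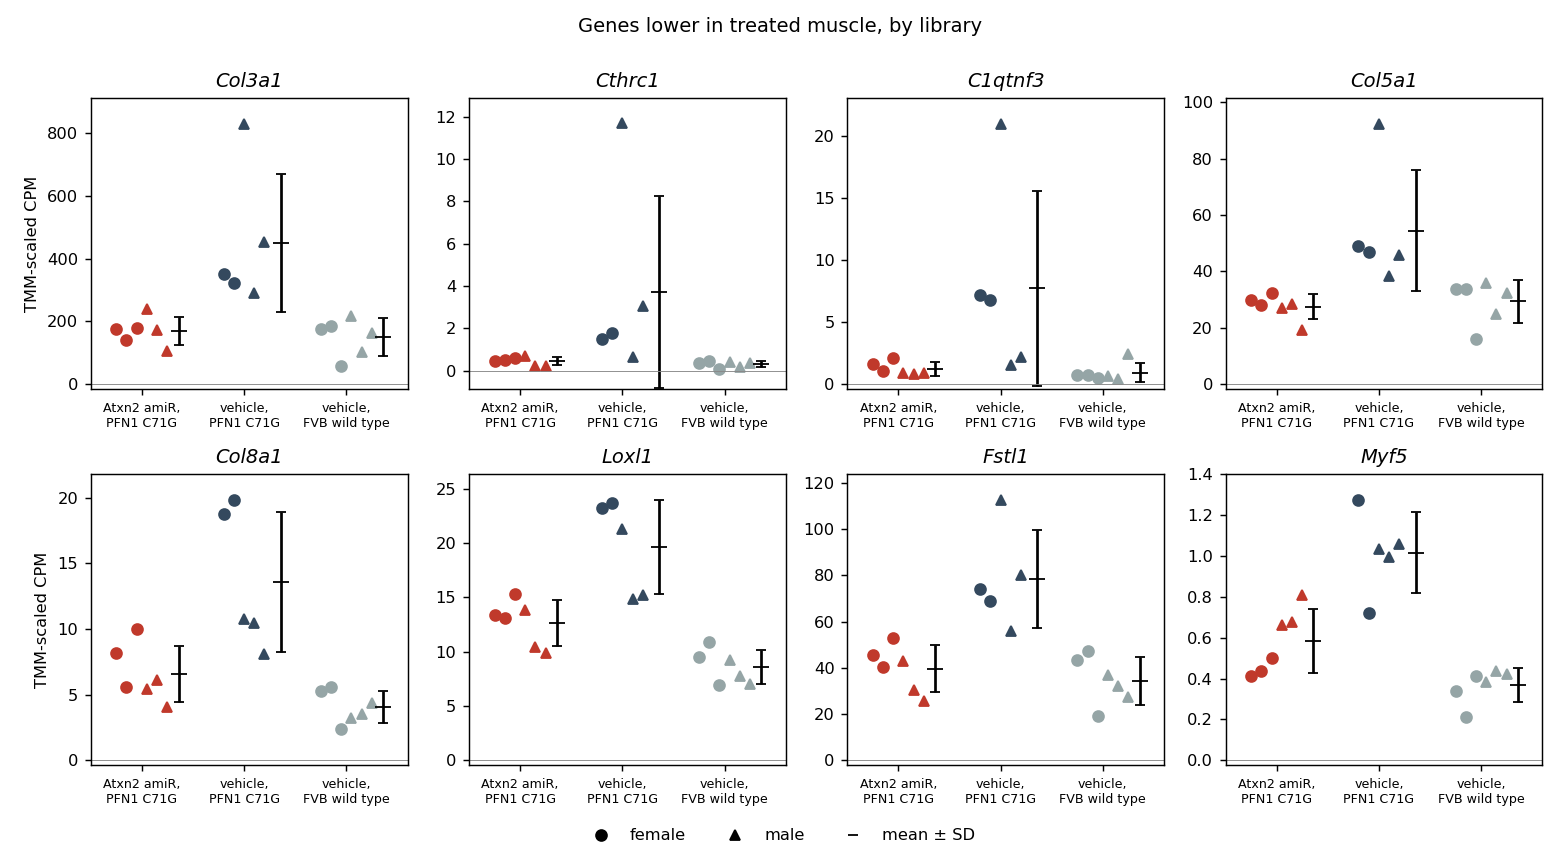
TMM-scaled CPM (y axis, linear) of 8 called genes in each library of treated, vehicle and wild-type muscle (x axis, left to right); circles are females, triangles males, and the black bar is the mean ± SD (n = 6, 5 and 6). Vehicle replicate 3, a male, is the highest point for Col3a1, Cthrc1, C1qtnf3, Col5a1 and Fstl1.

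Complement and macrophage genes leaned downward in treated muscle without a call by edgeR. All 15 complement genes had negative differences (median -0.76); by edgeR none was called. Unadjusted p-values were under 0.05 for 0 higher and 13 lower genes of 15. DESeq2 called 0 higher and 5 lower, and limma-voom 0 higher and 4 lower. C1qb, a chain of the first complement component, averaged 4.69 ± 1.70 CPM in treated muscle and 8.19 ± 1.20 CPM in vehicle muscle, with 3.68 ± 1.38 CPM in wild-type muscle (log2 difference -0.87 ± 0.23, adjusted p = 0.0678). Of 14 macrophage markers 13 were negative (median -0.69), and none was called. Among the 14 genes, 0 were higher and 9 lower at an unadjusted p under 0.05. DESeq2 called 0 higher and 4 lower, and limma-voom 0 higher and 3 lower. Their sum ranged over 71.5 to 138 CPM in treated muscle and 131 to 166 CPM in vehicle muscle, and only treated replicates 3 and 4 overlapped the vehicle range. Tendon markers also had negative values throughout (9 of 9, median -0.79), with sums of 67.9 to 825 CPM in treated muscle and 263 to 566 CPM in vehicle muscle. Of the 9, 0 were higher and 2 lower at an unadjusted p under 0.05. DESeq2 and limma-voom also called 0. The treated libraries alone spanned a wider range of tendon transcripts than the vehicle libraries. Adipocyte markers summed to 6428 to 10635 CPM in treated muscle and 7709 to 12311 CPM in vehicle muscle, endothelial markers to 462 to 618 CPM in treated muscle and 428 to 502 CPM in vehicle muscle, Schwann cell and nerve markers to 62.3 to 131 CPM in treated muscle and 41.6 to 92.1 CPM in vehicle muscle, and each pair of ranges overlapped. Most of the adipocyte sum was 1 gene, Car3, at a median of 9519 CPM (unscaled) over the 11 transgenic libraries. The median difference of the 11 tested adipocyte markers was -0.67, with 0.44 in females alone and -1.955 in males alone. At an unadjusted p under 0.05, 2 of them were higher and 0 lower, and edgeR called none. The part of these cell types in the muscle differences was not tested.

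Further called falls came from several lists. Of 15 chaperones of the endoplasmic reticulum 3 were called lower, the disulfide isomerase genes Pdia3 (log2 difference -0.37 ± 0.073, adjusted p = 0.0343) and Pdia6 (log2 difference -0.30 ± 0.068, adjusted p = 0.0456) and Hsp90b1 (log2 difference -0.26 ± 0.052, adjusted p = 0.0343). The list median was -0.20. Kdelr3, a receptor that returns such proteins to the endoplasmic reticulum, fell by 0.942 on the log2 scale (adjusted p = 0.0492). Myf5, a myogenic factor of satellite cells, measured 0.410, 0.580 and 0.812 CPM in treated muscle, against 1.27, 0.722, 1.03, 0.993 and 1.06 CPM in vehicle muscle and 0.212 to 0.435 CPM in wild-type muscle, with vehicle replicate 2 inside the treated range (log2 difference -0.80 ± 0.18, adjusted p = 0.0442). It was the 1 called gene among 8 markers of satellite cells, of which 2 were lower and none higher at an unadjusted p under 0.05. Among 18 profilins and actin regulators Pfn2, the second profilin, rose (log2 difference 0.33 ± 0.065, adjusted p = 0.0308) and Cfl1, a cofilin that severs actin filaments, fell (log2 difference -0.28 ± 0.064, adjusted p = 0.0461). Without vehicle replicate 3 the Cfl1 difference was -0.22 and was not called by edgeR (adjusted p = 0.114). Cfl1 has near-identical copies in the genome. Pfn2 averaged 82.4 ± 9.44 CPM in treated muscle and 66.5 ± 7.64 CPM in vehicle muscle, with 126 ± 9.74 CPM in wild-type muscle, and Cfl1 39.3 ± 1.40 CPM in treated muscle and 47.8 ± 4.54 CPM in vehicle muscle, with 36.4 ± 2.75 CPM in wild-type muscle. The other 16 were not called, and 10 of the 18 were lower at an unadjusted p under 0.05.

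The rest of the largest falls had no list in common. Igsf1, a membrane protein of the immunoglobulin superfamily, averaged 2.31 ± 0.801 CPM in treated muscle and 5.81 ± 3.46 CPM in vehicle muscle, with 1.40 ± 0.653 CPM in wild-type muscle (log2 difference -1.28 ± 0.27, adjusted p = 0.0366). Car13, a cytosolic carbonic anhydrase, fell (log2 difference -1.05 ± 0.21, adjusted p = 0.0363). So did Gxylt2, a xylosyltransferase of Notch (log2 difference -0.98 ± 0.18, adjusted p = 0.0301), and Cd209f, a C-type lectin gene (log2 difference -1.09 ± 0.25, adjusted p = 0.0474), both without overlap between treated and vehicle libraries. Prr32 averaged 0.989 ± 1.05 CPM in treated muscle and 2.09 ± 2.00 CPM in vehicle muscle, with 0.313 ± 0.229 CPM in wild-type muscle (log2 difference -1.46 ± 0.29, adjusted p = 0.0347), but 2 of the 6 treated libraries lay above the vehicle mean. It was higher in females: treated females had 2.45, 0.794 and 2.16 CPM against 4.25 and 4.32 CPM in vehicle females, and treated males 0.0961 to 0.258 CPM against 0.556 to 0.683 CPM in vehicle males.

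Of the 56 lists, 34 held no called gene. Among these were cytosolic ribosomal proteins (37 tested, median 0.039), proteasome subunits (31, 0.042), the TCA cycle (16, 0.13), cholesterol and lipid synthesis (21, -0.075), interferon-stimulated genes (25, -0.27) and targets of ATF4 (19, -0.055). At an unadjusted p under 0.05 each of these 6 lists had 0 to 4 higher and 0 to 4 lower genes, and DESeq2 called at most 1 gene in any of them. The medians of the ribosomal, proteasome and TCA lists turned negative with library totals alone. Cell-proliferation genes had 11 of 12 negative differences (median -0.47). An unadjusted p under 0.05 was reached by 0 higher and 8 lower genes of 12. DESeq2 called 0 higher and 1 lower, and limma-voom 0 higher and 0 lower. All 12 glucocorticoid targets were positive (median 0.51), among them Fkbp5 at 30.8 ± 8.30 CPM in treated muscle and 18.3 ± 5.56 CPM in vehicle muscle (log2 difference 0.78 ± 0.26, adjusted p = 0.120). Unadjusted p-values were under 0.05 for 2 higher and 0 lower genes of 12. DESeq2 called 1 higher and 0 lower, and limma-voom 0 higher and 0 lower.

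The response was tested between the sexes and between tissues. No gene was called for a treatment effect that differed between males and females (edgeR interaction). At an unadjusted p under 0.05 there were 916 genes, and DESeq2 also called 0. All 190 called genes had the same sign in both sexes. They were called from both sexes together, so this likeness of sign follows largely from the call and is no independent test. Without vehicle replicate 2, a female, 2 genes were called for the interaction. For the tissues, a joint fit over all 52 libraries tested 22316 genes. The treatment effect differed between muscle and spinal cord at 678 genes (3.04%) and between muscle and cortex at 567 (2.54%). The splits were 389 with a higher and 289 with a lower effect in muscle against spinal cord and 286 and 281 against cortex, and with library totals alone 153 and 728 against spinal cord and 143 and 841 against cortex. Of the 190 genes called in muscle 83 (43.7%) differed from spinal cord and 86 (45.3%) from cortex, 59 from both; the same muscle libraries enter the call and these tests. The titles of 4 spinal cord libraries name the other treatment than their library names do. The WPRE had 3189 to 6962 counts in each of the 6 spinal cord libraries titled as treated and 0 in each of the 6 titled as vehicle, so the vector counts follow the titles. Without these 4, 365 genes differed between muscle and spinal cord. Leaving out vehicle replicate 1 in muscle gave 436, and against cortex leaving out vehicle replicate 3 gave 361 and treated replicate 2 gave 340.

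Tpbgl was among the 5 genes of smallest adjusted p against both tissues. Its treatment effect in muscle exceeded that in spinal cord (log2 difference between tissues 1.70 ± 0.23, adjusted p = 1.61e-05) and that in cortex (log2 difference between tissues 1.78 ± 0.23, adjusted p = 1.64e-05). The log2 differences within spinal cord and cortex were -0.16 and -0.25. Gpt2 differed from cortex (log2 difference between tissues 1.04 ± 0.16, adjusted p = 0.000162), as did Phka1 (log2 difference between tissues 1.06 ± 0.15, adjusted p = 0.000113). Within cortex Phka1 had a difference of -0.33. Asrgl1, an asparaginase-like enzyme, rose in muscle (log2 difference 0.35 ± 0.059, adjusted p = 0.0237) and differed from cortex (log2 difference between tissues 0.51 ± 0.074, adjusted p = 0.000113). Actr3, a core subunit of the Arp2/3 complex that nucleates branched actin, measured 45.2, 48.8 and 50.3 CPM in treated muscle, against 56.6, 53.4, 55.8, 54.5 and 53.4 CPM in vehicle muscle and 42.1 to 45.6 CPM in wild-type muscle. It fell in muscle without overlap between the groups (log2 difference -0.18 ± 0.042, adjusted p = 0.0492) and differed from cortex (log2 difference between tissues -0.33 ± 0.047, adjusted p = 0.000113). Against spinal cord, the other leading genes were Dennd1a, a regulator of endocytic Rab GTPases (log2 difference between tissues 0.57 ± 0.074, adjusted p = 1.61e-05), Atxn7l3b (log2 difference between tissues 0.46 ± 0.061, adjusted p = 1.61e-05) and the ceramide synthase gene Cers1 (log2 difference between tissues 1.06 ± 0.15, adjusted p = 2.23e-05); these 3 were not called in muscle, and their differences within spinal cord were -0.40, -0.55 and -0.56. Without the 4 spinal cord libraries of opposite labels the values were 0.57 for Dennd1a, 0.49 for Atxn7l3b, 1.68 for Tpbgl, 0.63 for Atxn2 and 1.11 for Cers1, with adjusted p of 0.000601 to 0.000787.

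Over all genes the effect was higher in muscle than in spinal cord at 1.74% and lower at 1.3%, and against cortex higher at 1.28% and lower at 1.26%. By list, 3 glycolytic genes of 25 had a higher treatment effect in muscle than in spinal cord and 5 than in cortex, with none lower. Of 14 fast-fibre genes 0 were higher and 1 lower in muscle than in spinal cord, and 1 was higher and 0 lower than in cortex. Of 16 calcium-handling genes 0 differed from either tissue. Lists with at least 5 differences from spinal cord in 1 direction were, beside the actin regulators below, cholesterol and lipid synthesis, at 9 of 21 genes lower in muscle, interferon-stimulated genes, at 5 of 25 lower, and markers of Schwann cells and nerve, at 5 of 12 higher. In these 3 lists, in the fit over 52 libraries, the median treatment difference was -0.062, -0.25 and 0.43 within muscle, and 0.66, 0.38 and -0.55 within spinal cord. Among 19 collagen genes the effect in muscle was lower than in cortex at 3 and differed from spinal cord at none (edgeR). Among 18 profilins and actin regulators 5 were lower and 1 higher in muscle than in spinal cord, and 5 were lower than in cortex. Spinal cord itself held fibre transcripts that differed between its groups: fibre markers had a median difference of 2.77 between treated and vehicle spinal cord, and Fbp2, for example, had 4.51 ± 0.92 there at low level. The origin of those transcripts in spinal cord was not tested.

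**Figure D5:**
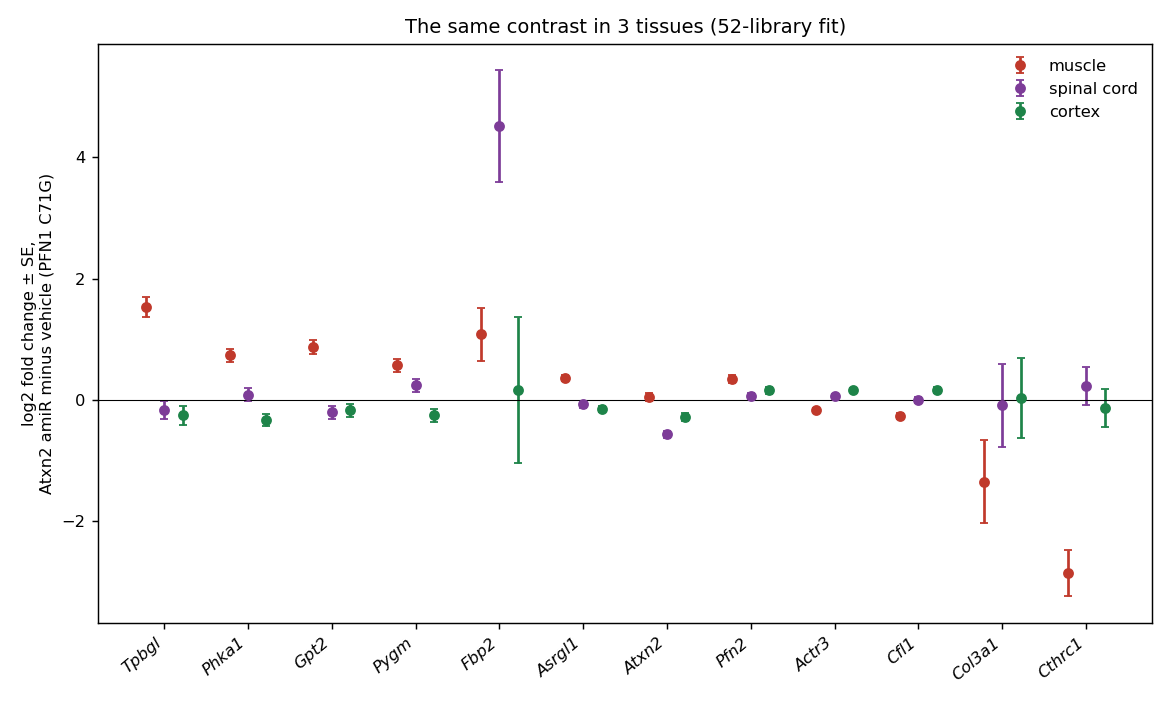
Log2 difference ± SE (treated minus vehicle, y axis) of 12 genes (x axis) in muscle, spinal cord and cortex from the fit over 52 libraries. Tpbgl, Phka1, Gpt2 and Asrgl1 lie above 0 in muscle and near or below 0 in both other tissues, Atxn2 lies at -0.56 in spinal cord and 0.053 in muscle, and Fbp2 and Col3a1 have the widest bars.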

How the data were processed

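RNA from powdered tissue was converted to poly(A)-selected libraries and sequenced in pairs of reads, per the labels' protocols. The submitters' processing notes name RSEM 1.3.2, STAR 2.7.2d, DESeq2 1.34.0 and bcl2fastq 2.20, without roles, and the genome builds GRCm38 and GRCh38. The authors deposited expected counts, an estimated count per gene that need not be whole, of 55401 mouse genes, human PFN1 and vector elements in 52 libraries; 6.98% of the values are not whole. RSEM divides reads that match several genes, which affects near-identical copies.

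Expected counts were rounded to whole numbers. Muscle was fitted over 17 libraries with edgeR 4.0.16 (R 4.3.3; TMM scaling, default filter on low counts, quasi-likelihood test, group and sex as terms, Benjamini-Hochberg adjustment, threshold 0.05), and tissue differences over all 52 libraries with sex within tissue. DESeq2 1.42.0, limma-voom with library quality weights (limma 3.58.1), other scalings, filters, covariates and left-out libraries were alternatives. CPM values per library are TMM-scaled unless called unscaled. Single values were tested by exact permutation in Python 3.11.15, on log2(unscaled CPM + 0.5) or, for the mitochondrial share, on the percentage of counts. The 66481847 to 111885232 counts per muscle library set the precision, and no library pair of a group differed by as little as sampling noise. Named genes are the 15 largest rises and falls with at least 1 CPM, up to 4 called genes per list (or the smallest p where none was called) and the 5 smallest interaction p-values per tissue; other genes of a list are named with their list, and some named genes are not reported here. The comparison, gene lists and rules were chosen with earlier results of these data known. Promoter sequences are from RefSeq, GRCm38.p6.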

Additional observations from a re-analysis of the deposited data

Results flagged for a closer look

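In 13 of 198 groups of libraries checked over the named genes, 1 library stood apart from the rest of its group, measured as its gap to the nearest library divided by the range of the group; chance alone gives about 1 in 20. Vehicle replicate 3 accounted for 7 of them, with ratios of 0.785 for Cthrc1, 0.817 for Lrrc15, 0.828 for C1qtnf6, 0.803 for Col5a1, 0.749 for Gxylt2, 0.739 for Cfl1 and 0.837 for the imprinted gene Mest. In each of these genes it was the highest vehicle library. Vehicle replicate 5 stood apart for Mylk2 (0.734) and for Snap25 (0.741), and vehicle replicate 1 for the interferon-induced gene Oas2 (0.721). Among treated libraries, replicate 3 stood apart for C1qb (0.644) and for the MHC class II gene H2-Aa (0.665), and replicate 2 for Asb4 (0.750).

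The treatment effect differed between tissues, by the test of the difference itself, at the genes with the smallest adjusted p. Against spinal cord the log2 differences between tissues were 0.57 for Dennd1a, 0.46 for Atxn7l3b, 1.70 for Tpbgl, 0.62 for Atxn2 and 1.06 for Cers1. Against cortex they were 1.78 for Tpbgl, -0.33 for Actr3, 1.06 for Phka1, 0.51 for Asrgl1 and 1.04 for Gpt2.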

How the results depend on the processing

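The direction of all 190 called genes was kept in each of the 26 alternative settings in which they could be tested. These settings refit the libraries in which the genes were called, so the kept direction is no independent test. The number of calls was not kept. It was 931 with DESeq2, 462 with limma-voom, 596 with library totals only, 295 without a low-count filter, 461 with transgenic libraries only, 474 with RNA integrity as a covariate, 116 with age as a covariate, 3 without the sex term, 1 without mice older than 36 weeks and 0 in females or males alone. Leaving out single libraries gave 0 to 344. The numbers that the labels give to libraries were not shown to pair them. Correlations of same-numbered deviations were -0.16 to 0.40 by title and 0.0088 to 0.40 by library name, with 4 of 5 pairs over 0.1 in each. By either numbering, 3 of 5 treated libraries correlated best with their own number. Of 5 vehicle libraries 1 did so by title and 2 by library name. The deviations were not adjusted for sex, so they cannot settle whether the libraries were paired. With the title number as a replicate block 22 genes were called, 6 of them among the 190. With the library-name number as the replicate block 260 were called, 110 of them among the 190.

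The count of genes whose effect differed from spinal cord was 375 without the sex term and 365 without the 4 libraries of opposite labels, and 436 to 817 when single libraries were left out. Against cortex it was 984 with library totals, 332 without the sex term, 936 with DESeq2 and 340 to 745 when single libraries were left out. The interaction with sex had 0 to 2 calls when single libraries were left out, an alternative chosen after seeing the data for the 3 interaction tests. The cause of these changes was not tested.

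The unscaled Atxn2 difference became 0.029 after TMM scaling (exact permutation p = 0.684) and ranged from -0.14 to -0.071 when single libraries were left out; without treated replicate 2 it was -0.14 (exact permutation p = 0.0317). In the edgeR fit Atxn2 turned to -0.098 with library totals, -0.017 without older mice, -0.030 in males, -0.022 with the library-name block and -0.012 without treated replicate 2. Pfn1 turned to 0.052 without older mice, 0.13 in males, 0.029 with limma-voom, 0.023 with the library-name block, 0.019 without vehicle replicate 1 and 0.033 without treated replicate 2. When single libraries were left out, the edgeR value ranged from -0.012 to 0.068 for Atxn2, from -0.072 to 0.033 for Pfn1, from -0.46 to 0.011 for H2-Aa and from -0.83 to 0.27 for Alas2. Human PFN1 ranged from -0.055 to 0.15 when single libraries were left out. H2-Aa turned to 0.29 in females and 0.011 without vehicle replicate 3, and the erythroid gene Alas2 to 1.35 in females, 0.078 and 0.083 with the title and library-name blocks and 0.27 without vehicle replicate 5; neither was called.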

Other observations

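Other gene groups held no gene called by edgeR, and they are given as values. All 15 genes of MHC class I and antigen processing had positive differences (median 0.30, and 0.15 without vehicle replicate 2), led by H2-T22 (log2 difference 0.40 ± 0.14, adjusted p = 0.143). Among the 15 genes, 1 was higher and 0 lower at an unadjusted p under 0.05. Neither DESeq2 nor limma-voom called any (0 each). Of 14 interferon-inducible GTPases 13 were positive (median 0.34, and 0.092 without vehicle replicate 2), with sums of 103 to 283 CPM in treated muscle and 85.7 to 232 CPM in vehicle muscle, against 61.5 to 271 CPM in wild-type muscle, where replicates 1 and 2 stood above the other 4. Of the 14, 0 were higher and 0 lower at an unadjusted p under 0.05. DESeq2 and limma-voom also called 0. Small heat shock proteins and chaperones had 14 of 16 negative differences (median -0.45, and -0.27 without vehicle replicate 1), led by Hsph1, a large chaperone of the HSP110 family, at 82.8 ± 11.2 CPM in treated muscle and 116 ± 21.2 CPM in vehicle muscle (log2 difference -0.49 ± 0.14, adjusted p = 0.0828). An unadjusted p under 0.05 was reached by 0 higher and 6 lower genes of 16. DESeq2 called 0 higher and 3 lower, and limma-voom 0 higher and 0 lower.

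In polyamine metabolism, Amd1, the decarboxylase that supplies spermidine synthesis, averaged 190.4 ± 113 CPM in treated muscle and 118 ± 54.9 CPM in vehicle muscle, with 652 ± 558 CPM in wild-type muscle (log2 difference 0.77 ± 0.22, adjusted p = 0.0850). Unadjusted p-values were under 0.05 for 6 higher and 0 lower genes of 13. DESeq2 called 3 higher and 0 lower, and limma-voom 2 higher and 0 lower. Imprinted growth genes had 11 of 12 negative differences (median -0.29), with Mest at 1.96 ± 0.410 CPM in treated muscle and 3.93 ± 2.88 CPM in vehicle muscle (log2 difference -0.96 ± 0.31, adjusted p = 0.120) and vehicle replicate 3 its highest library. Among the 12 genes, 0 were higher and 2 lower at an unadjusted p under 0.05. DESeq2 called 0 higher and 1 lower, and limma-voom 0 higher and 0 lower. Among keratins and intermediate filaments, the synemin gene Synm averaged 481 ± 55.8 CPM in treated muscle and 361 ± 84.6 CPM in vehicle muscle, with 879.9 ± 95.3 CPM in wild-type muscle (log2 difference 0.45 ± 0.12, adjusted p = 0.0604). Of the 10, 1 was higher and 2 lower at an unadjusted p under 0.05. DESeq2 called 1 higher and 0 lower, and limma-voom 1 higher and 0 lower. Among the neuronal markers that could be tested, Snap25 averaged 0.267 ± 0.318 CPM in treated muscle and 0.105 ± 0.119 CPM in vehicle muscle, with 0.0432 ± 0.0572 CPM in wild-type muscle (adjusted p = 0.189). An unadjusted p under 0.05 was reached by 1 higher and 0 lower genes of 3. Neither DESeq2 nor limma-voom called any (0 each).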
